A study of Mus musculus with 20 samples.

Results

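The comparison covered gene expression in Nox4-/- and wild type mouse induced pluripotent stem cell (iPSC) lines at the start of embryoid body (EB) differentiation. It used the 4 day 0 libraries of a series of 20, chosen by the day and line that the sample labels give: the wild type lines WT#1-4 and WT#20D-17, and the Nox4-/- lines #5-8 and #5-23, with 1 library per line. The other 16 libraries held the same 4 lines on days 3, 5, 7 and 14, as their titles name them; the last time in the labels' protocol differs from the titles' day 14. Every line came from embryonic fibroblasts, of wild type or Nox4 knockout mice, that received viral vectors for Oct4, Sox2, Klf4 and c-Myc and were selected with puromycin, and each line was 1 clone. WT#20D-17 is in the labels but is not among the lines that the study describes, so its derivation is taken from the labels' common description of the series. Cells were kept with LIF on fibroblast feeders, and EBs were formed in hanging drops without LIF. The labels count day 0 from the plating of aggregates that had already spent 3 days in hanging drops, so whether the day 0 RNA came from iPSC colonies or from such aggregates is not clear. The methods describe the isolation of fibroblasts from mid-gestation embryos of the CF-1 stock, in a passage that goes on to the feeders, and do not say whether this holds for the fibroblasts of each genotype that were reprogrammed. Sex, and whether the lines of a genotype came from different embryos, are not given in the sources used here. A clone and its genotype cannot be told apart within 1 library, and 2 clones per genotype are the whole replication.

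Nox4 is an NADPH oxidase that makes hydrogen peroxide without a stimulus, once it is paired with the membrane protein p22phox, so its activity follows its transcript level. Hydrogen peroxide oxidizes cysteines in phosphatases and other signalling proteins, and cells keep it in check with peroxiredoxins, glutathione and thioredoxin. Mouse iPSCs resemble embryonic stem cells when they have switched on their own pluripotency genes, such as Nanog, Esrrb and Zfp42, and have silenced the viral factors. During differentiation that network is shut down while genes of the germ layers are switched on.

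Day 0 libraries held 24649416 to 27708023 expected counts, that is, reads assigned to genes by a model. Values are given as CPM, counts relative to the library total, scaled with TMM factors over the 4 libraries. Unless stated otherwise, the 4 values of a gene follow the order WT#1-4, WT#20D-17, #5-8 and #5-23. A count of 3, taken as the smallest detected, was worth 0.111 to 0.125 CPM, and intervals and floors cover counting error only. Folds of genes at or under 3 counts, written as at least a value, set an observed level against this floor. They are not confidence limits, since the Wilson upper limits of such low counts lie above the floor.

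Nox4 (ENSMUSG00000030562, GRCm38 chr7:87246096-87398710, plus strand) separated the labels as they state. It had 7 counts in WT#1-4, 64 in WT#20D-17 and 0 in both Nox4-/- libraries. Relative to all counts this was, in CPM without TMM factors, 0.268 in WT#1-4 (95% Wilson interval from 0.13 to 0.553) and 2.6 in WT#20D-17 (2.03 to 3.32), while the Wilson upper limits for 0 counts were 0.155 in #5-8 and 0.139 in #5-23. The observed Nox4 level of WT#20D-17 was at least 21.4-fold above the floor of 3 counts, which was 0.121 and 0.108 in those libraries. The Wilson limits of 2.03 and 0.155 lie closer together than that. The interval of WT#1-4 overlapped the limits of both Nox4-/- libraries. Too few libraries reached the count filter for Nox4 to be tested across genes.

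The lines did not carry pluripotency markers alike, and what this means for the counts below was not tested. In a list of 28 naive pluripotency genes, all 28 were above 3 counts in WT#20D-17, while 9, 8 and 10 were at or under 3 counts in WT#1-4, #5-8 and #5-23. Nanog, a core factor of that network, was 0.0377, 390.4, 0.356 and 0.147 CPM. Dppa5a, an RNA-binding protein of pluripotent cells, was 0.414, 919, 0.119 and 0 CPM. Lin28a, which blocks let-7 maturation, was 0, 478, 0 and 0 CPM, and Esrrb, an orphan nuclear receptor, was 0.0377, 126, 0 and 0 CPM. For these genes WT#20D-17 stood alone, and WT#1-4 was as low as both Nox4-/- lines. The factors carried by the vectors ran otherwise: Pou5f1 (Oct4) was 5712, 1159, 3054 and 4357 CPM, Klf4 801, 26.9, 642 and 821 CPM and Myc 1326, 51.9, 521 and 676 CPM, lowest each time in WT#20D-17, whereas Sox2 was 33.3, 199, 153 and 200.5 CPM. Counts of these 4 genes may include vector transcripts, which were not told apart here. Fgf4 and Tdh, which also mark pluripotent cells, were detected in every line, with Fgf4 at 145, 95.4, 133 and 173 CPM and Tdh at 58.5, 216, 115 and 90.7 CPM. The libraries labelled WT#1-4, #5-8 and #5-23 thus held Nanog, Esrrb, Lin28a and Zfp42 at or near the floor, while other genes of the list were expressed in them. The study described these lines as pluripotent, from alkaline phosphatase activity and from staining for Oct4, Sox2 and SSEA-1. Those are enzyme and protein measures, unlike the RNA values here.

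**Figure D1:**
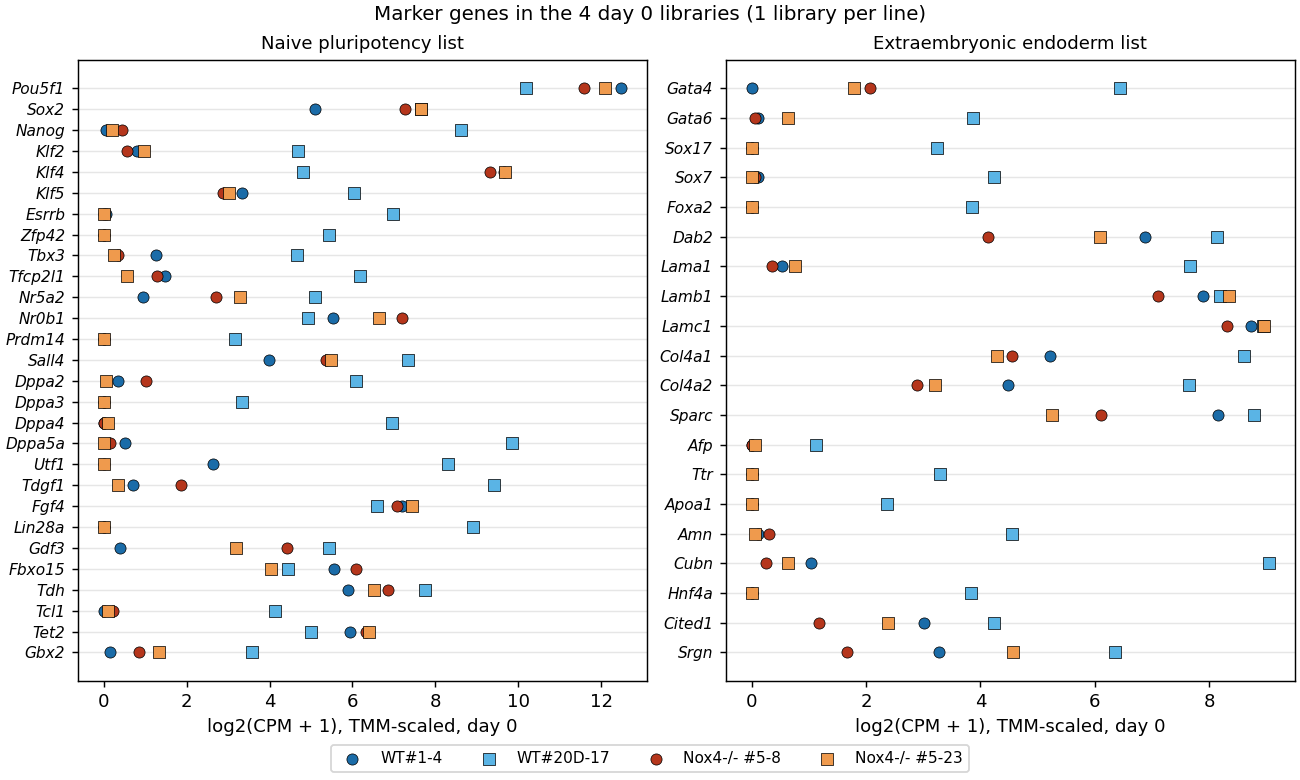
Level of each gene of the naive pluripotency list (left) and the extraembryonic endoderm list (right) in the 4 day 0 libraries, as log2 of CPM plus 1; each point is 1 library and points at the same level overlap. Nanog, Esrrb, Zfp42, Lin28a and Dppa5a lie near 0 in WT#1-4 and in both Nox4-/- lines and above 5 in WT#20D-17, while Pou5f1 and Klf4 are lowest in WT#20D-17.

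Other cell type lists also set WT#20D-17 apart. Of 20 extraembryonic endoderm genes, 10, 0, 8 and 8 were at or under 3 counts in the 4 lines, and their summed level was 1140 and 3100 CPM in the wild type lines and 573 and 982 CPM in the Nox4-/- lines. Cubn, an endocytic receptor of visceral endoderm, was 1.05, 525, 0.198 and 0.553 CPM, and Gata4, an endoderm transcription factor, was 0, 86.2, 3.2 and 2.47 CPM. Fgf5, a ligand of the formative epiblast, was 0, 96.9, 0 and 0 CPM, and Otx2, a factor of the same stage, was 0, 195, 0 and 0 CPM. The fibroblast list of 27 summed to 1990, 729, 730 and 944 CPM, of which Fn1, the matrix protein fibronectin, made up 1284, 611, 612 and 829.6 CPM. Fbn1, a microfibril protein, was 323, 2.72, 29.8 and 14.4 CPM, but Tagln, a smooth muscle actin-binding protein, was 1.77, 20.7, 0.673 and 0.664 CPM. Tagln, Thy1 and Pdgfra were thus higher in WT#20D-17 than in WT#1-4, and 18 of 24 tested genes of the list were at least 2-fold lower in it. In bulk RNA, fewer cells of a type and less RNA per cell cannot be told apart. The part that these markers have in the genotype counts was not tested.

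Across 15382 genes that passed the count filter, edgeR's quasi-likelihood test with Benjamini-Hochberg adjustment called 0 genes between genotypes at an FDR of 0.05 (0% of those tested), and the lowest adjusted p was 0.615. At an unadjusted p under 0.05 there were 966 genes (6.28%), of which 306 (1.99%) were higher and 660 (4.29%) lower in Nox4-/- cells. Its exact test called 199 genes (1.29%), 68 (0.442%) higher and 131 (0.852%) lower, and DESeq2, which gave an adjusted p for 14785 genes, called 496 of those (3.35%), 121 (0.818%) higher and 375 (2.54%) lower. All 199 genes of the exact test had values that did not overlap between genotypes, against 35% of all tested genes. The same 4 values gave the calls, so this is no check on them. The number of calls turned on which wild type line was in the fit: without WT#20D-17 there were 563 calls (165 higher, 398 lower), and without WT#1-4 there were 4953 (2047 higher, 2906 lower), where the lone wild type library is assumed to vary as the Nox4-/- lines did. Without #5-8 or #5-23 there were 0 calls each.

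Both wild type values lay on one side of both Nox4-/- values in 5380 genes, 35% of those tested. With 2 values a side, about this share of genes separates by order alone under any labels. The count is therefore no measure of a genotype effect. Nox4-/- cells were above in 2822 (18.3%) and below in 2558 (16.6%). At least 2-fold lay between the nearest values, on log2 of CPM plus 1, in 425 genes (2.76%), with Nox4-/- cells above in 188 (1.22%) and below in 237 (1.54%). These genes were picked by their values, so what follows describes them and is no test. Of the 237, 33 were at or under 3 counts in both Nox4-/- lines, and of the 188, 13 were at or under 3 counts in both wild type lines. Just inside the limit were Rgs2, a G protein regulator, at 2.79, 0.962, 7.79 and 6.6 CPM, and Ap3d1, a vesicle adaptor subunit, at 123, 117, 49.4 and 57.7 CPM. Just outside were Sox5, a chondrogenic and neural factor, at 1.21, 0, 3.4 and 4.68 CPM, and Obsl1, a cytoskeletal adaptor, at 74.7, 67.5, 28.4 and 33.3 CPM.

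**Figure D2:**
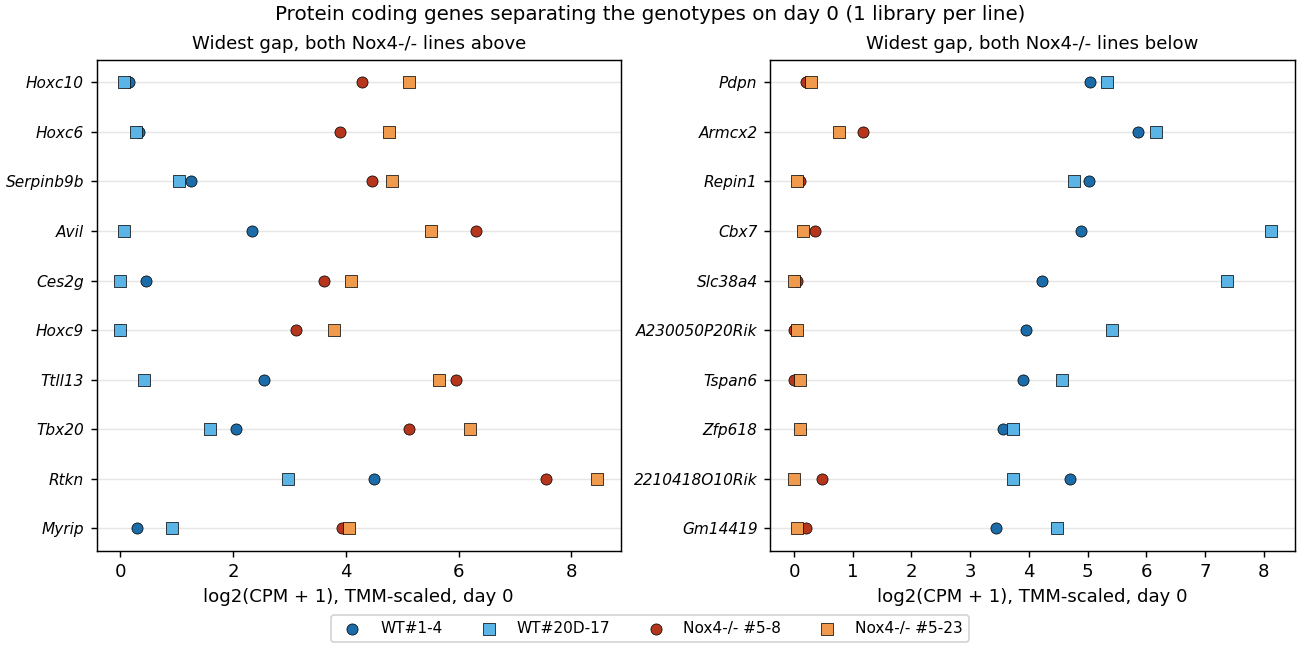
The 10 protein coding genes with the widest gap between genotypes in each direction, as log2 of CPM plus 1, on day 0; each point is 1 library and overlapping points hide one another. Hoxc10 and Pdpn head the panels, and the wild type points of Cbx7 and Slc38a4 lie over 3 log2 units apart while both Nox4-/- points are near 0.

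The gene with the widest gap below the wild type lines was Pdpn, which encodes podoplanin, a mucin-type glycoprotein of lymphatic endothelium, podocytes and other epithelia. Pdpn (chr4:143267431-143299564, minus strand) was 31.8, 39.4, 0.158 and 0.221 CPM, from 843, 943, 4 and 6 counts. The wild type lines were close to each other and both Nox4-/- lines were near the floor. The log2 fold change was -7.51 ± 0.54 (SE, n = 2 lines per genotype), with an adjusted p of 0.615 in the quasi-likelihood test and 2.58e-11 in the exact test of edgeR. Armcx2, of a family of X-linked armadillo proteins that sit on mitochondria (chrX:134804145-134809221, minus strand), was 57.4, 71.1, 1.27 and 0.700 CPM, a log2 fold change of -6.02 ± 0.49.

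Several genes were at or under 3 counts in both Nox4-/- lines, for which the fold is given against the floor of 3 counts. Wilson limits give smaller folds. For Repin1 they were 24.2 CPM (lower, WT#20D-17) and 0.289 CPM (upper, #5-8). Repin1, a zinc finger protein named for its binding at replication origins (chr6:48593883-48599082, plus strand), was 31.4, 26.2, 0.0791 and 0.0369 CPM, at least 221-fold lower in Nox4-/- cells, and shares its locus with a pair of gene models on the same strand. Slc38a4, a sodium-coupled neutral amino acid transporter and an imprinted gene (chr15:96994820-97055956, minus strand), was 17.6, 166, 0.0396 and 0 CPM, at least 148-fold lower. These folds took the lower wild type line, so the large gap between the wild type lines of Slc38a4 does not enter them. Tspan6, an X-linked tetraspanin (chrX:133891068-133898429, minus strand), was 13.9, 22.5, 0 and 0.0737 CPM, at least 117-fold lower. A230050P20Rik was 14.5, 41.8, 0 and 0.0369 CPM, at least 122-fold lower, and overlaps Angptl6 on the other strand. Zfp618, a zinc finger protein (chr4:62965573-63139708, plus strand), was 10.8, 12.2, 0.0791 and 0.0737 CPM, at least 91.4-fold lower.

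Cbx7, a chromodomain subunit of Polycomb repressive complex 1 that embryonic stem cells use (chr15:79915807-79971119, minus strand), was 28.7, 277, 0.277 and 0.111 CPM; it overlaps Apobec3 on the other strand. It was near the floor in both Nox4-/- lines, and WT#20D-17 exceeded WT#1-4 by 3.23 on the log2 scale. The zinc finger genes 2210418O10Rik, at 25, 12.3, 0.396 and 0 CPM, and Gm14419, at 9.87, 21.3, 0.158 and 0.0369 CPM, belong to a family of near-identical copies on chromosome 2, so how reads were split among copies is uncertain. Psma8, a proteasome subunit of germ cells, was 16.2, 7.4, 0 and 0 CPM, at least 62.4-fold lower, and Magel2, an imprinted gene of the Prader-Willi region, was 5.12, 18.3, 0 and 0 CPM, at least 43.2-fold lower.

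CG dinucleotides near a start site are where DNA methylation can act. To place the genes, the stretches just upstream of 3 that were low in both Nox4-/- lines, and of Serpinb9b, described next, are shown. They are the 250 bases before the start site in RefSeq's GRCm38.p6 annotation, written along the gene's strand with each CG in capitals. They lie at chr4:143299565-143299814 (minus), chr15:97055957-97056206 (minus), chrX:134809222-134809471 (minus) and chr13:33027164-33027413 (plus).
Pdpn: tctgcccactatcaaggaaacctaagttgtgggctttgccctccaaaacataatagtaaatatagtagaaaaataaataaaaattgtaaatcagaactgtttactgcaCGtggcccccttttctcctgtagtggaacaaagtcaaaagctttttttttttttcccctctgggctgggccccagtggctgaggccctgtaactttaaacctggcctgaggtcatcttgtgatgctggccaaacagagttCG
Slc38a4: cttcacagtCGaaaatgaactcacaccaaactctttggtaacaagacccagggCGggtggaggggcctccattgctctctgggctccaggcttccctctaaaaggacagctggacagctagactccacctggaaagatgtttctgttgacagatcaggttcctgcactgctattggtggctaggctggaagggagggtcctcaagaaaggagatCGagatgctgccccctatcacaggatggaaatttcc
Armcx2: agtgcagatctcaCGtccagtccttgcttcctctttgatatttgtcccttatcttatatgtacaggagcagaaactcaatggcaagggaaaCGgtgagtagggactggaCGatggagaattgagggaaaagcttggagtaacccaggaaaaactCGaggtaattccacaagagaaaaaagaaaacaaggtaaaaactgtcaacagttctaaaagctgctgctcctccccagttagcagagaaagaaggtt
Serpinb9b: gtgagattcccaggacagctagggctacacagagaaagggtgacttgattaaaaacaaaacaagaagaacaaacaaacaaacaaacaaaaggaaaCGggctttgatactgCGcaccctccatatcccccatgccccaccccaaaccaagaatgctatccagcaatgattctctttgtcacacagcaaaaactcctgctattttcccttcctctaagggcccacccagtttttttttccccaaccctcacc
They hold 2, 3, 4 and 2 CG, respectively. Among other genes low in both Nox4-/- lines, the same stretch held 48 CG in Zfp618, 23 in Cbx7 and 7 in Magel2. It held 5 in Tspan6 and 1 in 2210418O10Rik, so the stretches shown do not stand for the set. The stretch of Cbx7 lies inside the gene model given above, 38473 bases from its start, and overlaps an annotated exon. Of all 32851 promoter windows in the table, 92.1% hold a CG in their first 250 bases, with a median of 6. The letters CG read the same on both strands. A window was found for 307 of the 425 genes and for 70.5% of all tested genes, so that many genes have no value. CG content was not compared between these sets. Methylation was not measured.

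Above the wild type lines, Hoxc10 and Hoxc6 of the HoxC cluster had the widest gaps among the genes named. Hox genes encode homeodomain factors that set position along the body axis and are silent in pluripotent cells. Hoxc10 (chr15:102966796-102971893, plus strand) was 0.113, 0.0418, 18.6 and 33.7 CPM, from 3, 1, 470 and 914 counts, at least 148-fold higher in Nox4-/- cells, with an exact test adjusted p of 3.66e-08 against 0.735 in edgeR's quasi-likelihood test. Hoxc6 (chr15:102998257-103011881) was 0.264, 0.209, 13.9 and 26.2 CPM, a log2 fold change of 6.38 ± 0.70. In both genes the Nox4-/- lines were far above the wild type lines, and #5-23 exceeded #5-8. Hoxc9 had 0 counts in both wild type lines and was 7.64 and 12.8 CPM in #5-8 and #5-23, at least 60.9-fold higher.

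Of the 8 HoxC genes that passed the filter, 7 were separated at least 2-fold, against 1.22% of all genes in that direction, and none lay below. Hoxc5, Hoxc6, Hoxc8, Hoxc9, Hoxc10 and Hoxc11 had 7 counts or fewer in each wild type line. They passed the filter through the Nox4-/- lines and could only lie above, so the set against 1.22% is no test. They were adjacent: Hoxc11, Hoxc10, Hoxc5, Hoxc9, Hoxc8, Hoxc6 and Hoxc4 formed the longest run of neighbouring tested genes on one side. The 8th, Hoxc13 at the far end, was 0, 0.669, 0.633 and 1.95 CPM with overlapping genotypes, and Hoxc12 was near 0 in every line. The model of Hoxc5 spans Hoxc10, Hoxc9, Hoxc8 and Hoxc6 on the same strand, which leaves the division of reads among them uncertain. The median log2 fold change over the 8 genes was 6.73, against -0.0012 over all genes. Of these, Hoxc5, Hoxc9, Hoxc10 and Hoxc11 were at or under 3 counts in both wild type lines, so that their fitted values depend on the prior count. In the HoxB cluster 2 genes were tested, 1 above and 1 below; Hoxb4, the one above, was 0.452, 0.418, 3.72 and 4.72 CPM and separated at least 2-fold. Of 9 HoxA genes tested, 3 were separated with Nox4-/- cells above, 0 of them by 2-fold, and WT#1-4 exceeded WT#20D-17 at least 2-fold in 7. All 4 HoxD genes tested had at least 2-fold between the Nox4-/- lines, and the cluster summed to 2.22 CPM in #5-8 and 28.5 CPM in #5-23.

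**Figure D3:**
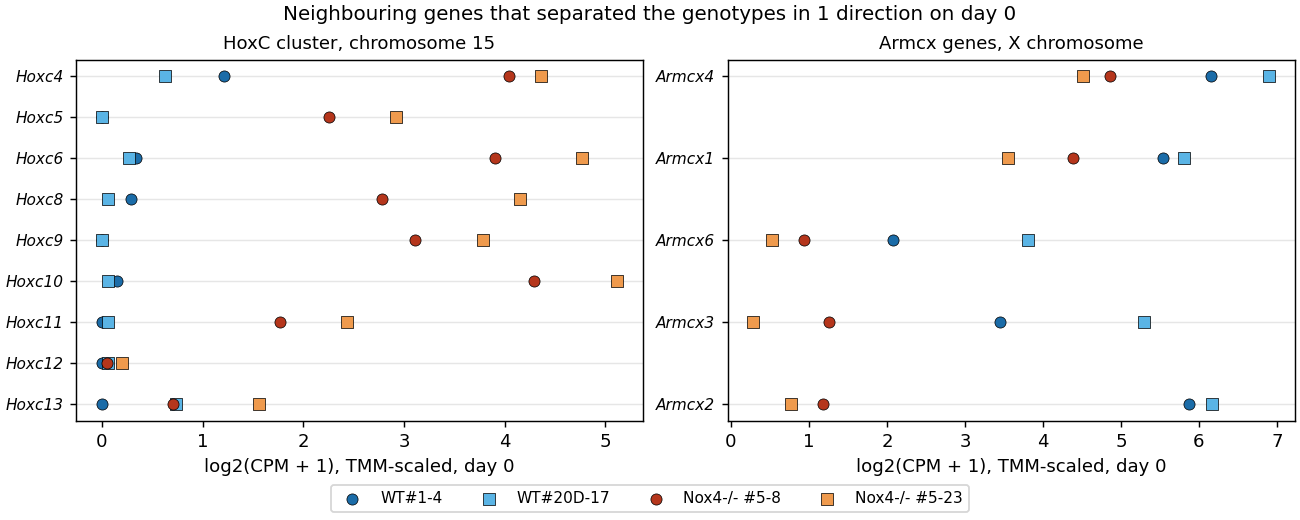
Genes of the HoxC cluster (left) and the run of neighbouring Armcx genes on the X chromosome (right), as log2 of CPM plus 1, in the 4 day 0 libraries. Both Nox4-/- points lie above both wild type points from Hoxc4 to Hoxc11 and below them for the 5 Armcx genes, and points at 0 overlap.

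The second longest run held 5 X-linked genes, Armcx4, Armcx1, Armcx6, Armcx3 and Armcx2, all below the wild type lines. Armcx3, a mitochondrial outer membrane protein that takes part in mitochondrial transport in neurons, was 9.94, 38.1, 1.38 and 0.221 CPM, and Armcx1 was 45.6, 55, 19.8 and 10.7 CPM. Thus Armcx1 and Armcx4 (at 70.4, 118, 27.9 and 21.9 CPM) were still plainly expressed in Nox4-/- cells, whereas Armcx2, Armcx3 and Armcx6 (at 3.2, 13, 0.91 and 0.442 CPM) were near 1 CPM or less in both. In all, 50 of the 425 genes had a tested neighbour on the same side, in 21 runs. The X chromosome held 5 genes above and 26 below, 6.24% of its 497 tested genes against 2.76% overall. Of 36 genes tested within 5 Mb of Nox4, 6 were above and 8 below, against 18.3% and 16.6% of all genes, and 1 was at least 2-fold below, against 1.54%. This was Ctsc, a lysosomal cysteine protease, at 14.1, 85.5, 2.37 and 0.664 CPM.

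The remaining genes with the widest gap above the wild type lines had varied roles. Serpinb9b, an inhibitor of serine proteases (chr13:33027416-33041884, plus strand), was 1.39, 1.05, 21.2 and 27.1 CPM, a log2 fold change of 4.30 ± 0.51 with both genotypes tight. Tbx20, a T-box factor of the developing heart, was 3.13, 2.01, 33.9 and 72.7 CPM, and Myrip, which links Rab27 to myosin, was 0.226, 0.878, 14.2 and 15.6 CPM. Rtkn was 21.7, 6.86, 186 and 351 CPM and overlaps Wdr54 on the other strand. In these genes both Nox4-/- lines were well above both wild type lines. Avil, an actin-binding villin relative, was 4.07, 0.0418, 78.1 and 44.7 CPM, Ttll13, a tubulin-modifying ligase, 4.86, 0.335, 60.7 and 49.3 CPM, and Ces2g, a carboxylesterase, 0.377, 0, 11.2 and 16 CPM. For Avil and Ttll13 WT#1-4 and WT#20D-17 differed from each other by -2.28 and -2.13 on the log2 scale, with WT#20D-17 lower.

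Among the genes that the study centred on, the growth factors differed in their order. Of 28 growth factor and receptor genes of the IGF, TGF-beta and PDGF families tested, 3 were above and 10 below, against 18.3% and 16.6% of all genes. Igf2, a fetal growth factor and imprinted gene that overlaps other gene models on both strands, was 3.5, 14.7, 1.74 and 2.14 CPM, and Tgfb1, which acts through SMAD proteins, was 3.96, 6.36, 1.58 and 1.58 CPM. Both Nox4-/- lines were below both wild type lines, with log2 fold changes of -2.23 ± 0.90 and -1.70 ± 0.62, but for Igf2 the Nox4-/- lines lay closer to WT#1-4 than WT#1-4 did to WT#20D-17. Pdgfb, a ligand of PDGF receptors, was 3.73, 1.34, 20.9 and 27.1 CPM, above the wild type lines in both Nox4-/- lines with a log2 fold change of 3.24 ± 0.70. Pdgfa was 5.35, 25.7, 24.9 and 48.8 CPM with overlapping genotypes, and it lies on chromosome 5, where #5-23 had the higher median level. None of the 4 was called by edgeR's quasi-likelihood test, with adjusted p of 0.787, 0.787, 0.761 and 0.914.

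Of 26 MAPK signalling genes that the study lists, 25 passed the filter, 16 were below and 2 above the wild type lines, against 16.6% and 18.3% of all genes, and the median log2 fold change was -1.49. The study chose this list on these samples, so its direction is not independent evidence. Flnc, an actin crosslinker, was 2.03, 50.4, 0.435 and 0.332 CPM, and Efna2, a ligand of Eph receptors, was 11.3, 11, 3.01 and 3.02 CPM. For Efna2 both genotypes were tight, while Flnc was 4.08 higher on the log2 scale in WT#20D-17 than in WT#1-4. Hspa1a, an inducible chaperone, was 15, 2.93, 1.46 and 0.0737 CPM, highest in WT#1-4.

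Of 19 early response genes tested, 9 were below the wild type lines and 0 above, against 16.6% of all genes below, with a median of -0.77. Egr1, a zinc finger factor induced within minutes of growth factor signals, was 57.7, 13.8, 3.32 and 5.9 CPM, and Zfp36, which destabilizes mRNA, was 14.1, 22.5, 4.91 and 7.22 CPM. Dusp6, a phosphatase of ERK, was 47.1, 127, 39.2 and 31.3 CPM. Egr1 was the only one of these genes at least 2-fold apart between genotypes. Fos, at 14.7, 3.47, 6.21 and 8.92 CPM, did not separate them.

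NADPH oxidase partners gave little. Of the 17 listed genes, Nox4 included, 5 passed the filter, with 1 above and 1 below the wild type lines, against 18.3% and 16.6% of all genes. Cyba, which encodes p22phox, was 2.07, 21.4, 9.65 and 5.49 CPM, so both Nox4-/- lines lay between the wild type lines. Poldip2, a Nox4 activator, was 286, 98.1, 291 and 329 CPM, and Rac1 was 334, 187, 278 and 563 CPM. Cybb (Nox2), Nox3, Duox1, Duox2 and Ncf4 had 6 counts or fewer in each of the 4 libraries, and Nox1 was at 0.301, 0.418, 0.237 and 0.184 CPM.

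Of 30 redox defence genes tested, 6 were above and 8 below, against 18.3% and 16.6% of all genes, with a median log2 fold change of -0.03, which was positive without WT#1-4, WT#20D-17 or #5-8. Slc7a11, the cystine importer that feeds glutathione synthesis (chr3:49892526-50443614, minus strand), was 8.17, 3.68, 52.1 and 50.3 CPM, a log2 fold change of 3.11 ± 0.52. Both Nox4-/- lines held about the same level and both wild type lines were far below. Srxn1, sulfiredoxin, which restores oxidized peroxiredoxins, was 8.63, 29.7, 3.24 and 2.91 CPM, and Gstt1, a glutathione transferase, was 1.62, 9.91, 0.237 and 0.221 CPM, both at least 2-fold below. Sod2, the mitochondrial superoxide dismutase, was 171, 61.4, 273 and 235 CPM, above but less than 2-fold.

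Of 21 glycolysis and hypoxia genes tested, 10 were below the wild type lines, 0 above and 6 between them, against 16.6%, 18.3% and 27.1% of all genes, with a median of -0.62. Vegfa, an angiogenic ligand that hypoxia induces (chr17:46016993-46032369, minus strand), was 45.4, 43.3, 13.4 and 8.88 CPM, a log2 fold change of -1.99 ± 0.37, and was the only one at least 2-fold apart. Bnip3, a mitophagy receptor, was 39.9, 71.5, 24.5 and 17.1 CPM, and Pfkp, a phosphofructokinase, was 176, 107, 87.4 and 88.2 CPM. Slc16a3, which encodes the lactate exporter MCT4 and was not in the list, was 149.8, 155, 28.4 and 26 CPM, with a log2 fold change of -2.49 ± 0.24. Its wild type lines were nearly equal and its Nox4-/- lines were also nearly equal, and far lower.

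Antigen presentation genes of MHC class I were below the wild type lines in 8 of 14 tested and above in 0, against 16.6% and 18.3% of all genes. Tap2, a peptide transporter, was 15.3, 14, 1.7 and 2.21 CPM, with both genotypes tight and a log2 fold change of -2.90 ± 0.53. H2-Q4, at 4.86, 27.1, 1.11 and 1.92 CPM, belongs to a family of similar genes among which reads can be split. Tap1, the partner of Tap2, was 15.6, 27.4, 12.4 and 42 CPM, and H2-K1 was 58.6, 14, 27.8 and 36.2 CPM, neither of which separated the genotypes.

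Imprinted genes were below in 14 of 35 tested and above in 2, against 16.6% and 18.3% of all genes. H19, a noncoding RNA next to Igf2, was 16, 123, 4.11 and 1.7 CPM, and with Slc38a4 and Magel2 it was at least 2-fold below. Slc38a4 and Magel2 were at or under 3 counts in both Nox4-/- lines. They passed the filter through the wild type lines and could only lie below. Peg3, a zinc finger protein, was 742, 324, 870.4 and 467 CPM and Grb10, an adaptor of insulin signalling, 653, 460.3, 611 and 659 CPM, and both overlapped. Germ line genes were below in 4 of 8 tested and above in 0, against the same shares. Psma8, given above, had 0 counts in both Nox4-/- lines, so it too could only lie below. Tex15, needed for meiosis, was 41.2, 20.6, 3.92 and 0.811 CPM. Of the list of 24, 15, 1, 17 and 16 were at or under 3 counts in the 4 lines.

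Developmental genes lay in both directions. In the neuroectoderm list 5 of 10 tested were above and 0 below, against 18.3% and 16.6% of all genes. Among those above, Zic1, Olig2 and Pax3 had 8 counts or fewer in each wild type line. These passed the filter through the Nox4-/- lines and could only lie above. Pax6, an eye and forebrain factor, was 5.61, 1.21, 39.5 and 26.7 CPM, and Zic1, a neural crest and cerebellum factor, was 0.188, 0.167, 4.95 and 90.9 CPM, with #5-23 far above #5-8. Of 9 trophoblast genes tested, 4 were above and 1 below, against the same shares: Ascl2 was 0.49, 2.05, 7.75 and 9.95 CPM and Esx1 1.7, 0.962, 7.16 and 7.37 CPM, while Krt8, a simple epithelial keratin, was 4.93, 59.1, 1.31 and 0.0369 CPM. Nr0b1, a nuclear receptor of pluripotent cells, was 45, 29.6, 145 and 98.8 CPM and was the only naive marker at least 2-fold above, while Utf1, a chromatin protein of pluripotent cells, was 5.2, 317, 0 and 0 CPM, at least 43.8-fold lower. Nodal, the ligand that patterns the epiblast, was 4.18, 148, 0.277 and 0.406 CPM.

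Sparc, a collagen-binding protein made by parietal endoderm and fibroblasts, was 284, 441, 67.6 and 37.2 CPM, a log2 fold change of -2.79 ± 0.45, and Mmp2, a gelatinase, was 72.6, 27.8, 4.47 and 3.69 CPM, a log2 fold change of -3.62 ± 0.62. Of 24 fibroblast genes tested, 9 were below, 0 above and 13 between the wild type lines, against 16.6%, 18.3% and 27.1% of all genes. Thy1, a surface glycoprotein, was at least 2-fold below, at 4.44, 14.4, 1.38 and 1.03 CPM. Of 12 extraembryonic endoderm genes tested, 6 were below and 0 above, and the shares of all genes stand as given for this and the following lists. Sparc was at least 2-fold below with WT#1-4 and WT#20D-17 close to each other, whereas Col4a2, a basement membrane collagen, was 21.4, 200.4, 6.41 and 8.22 CPM. Of 8 primitive streak and mesoderm genes tested 1 was below, Cldn5, an endothelial tight junction protein, at 12.1, 1.84, 0 and 0.258 CPM. Of 12 formative epiblast genes 1 was above and 7 below, with Cdh2, N-cadherin, above at 19.5, 6.65, 47.4 and 46.5 CPM. Among those below, Lefty2 and Tcf15, like Cldn5, had 7 counts or fewer in each Nox4-/- line. These passed the filter through the wild type lines and could only lie below. Of 14 DNA methylation enzymes 2 were above and 3 below, and of 5 X-inactivation and Y-linked genes 1 was below. Of the 2-cell-like list 1 gene passed the filter, with Nox4-/- values between the wild type values. Of 22 sterol synthesis genes 2 were above and 2 below, and of 20 cell cycle inhibitors and p53 targets 8 were above and 2 below, with 1 at least 2-fold above, Gdf15, a stress-induced cytokine, at 1.43, 1.25, 4.04 and 7.74 CPM.

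The wild type lines disagreed more with each other than the Nox4-/- lines did. They were at least 2-fold apart in 4398 genes (28.6%), with WT#20D-17 higher in 2069 (13.5%) and lower in 2329 (15.1%), whereas the Nox4-/- lines were so in 786 (5.11%). WT#1-4 differed from #5-8 in 1686 genes (11%) and from #5-23 in 1708 (11.1%), fewer than from the other wild type line. WT#20D-17 differed from #5-8 in 4101 genes (26.7%) and from #5-23 in 4465 (29%). With 1 library per line these counts have no replicate check. They also leave out genes expressed in 1 line alone, which did not pass the filter. Nanog, Lin28a, Esrrb and Zfp42, high in WT#20D-17 only, are among those left out.

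**Figure D4:**
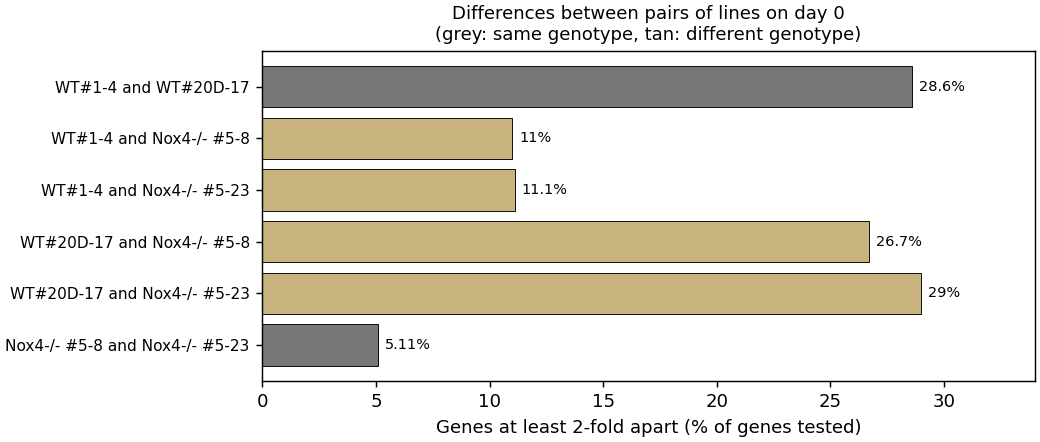
Share of tested genes at least 2-fold apart on day 0 for each pair of lines, in percent. The pair of wild type lines (28.6%) is close to the pairs of WT#20D-17 with Nox4-/- lines, and the pair of Nox4-/- lines is lowest (5.11%).

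In 81.9% of the 4398 genes the mean of the Nox4-/- lines was nearer to WT#1-4. Both Nox4-/- lines were within 2-fold of WT#1-4 in 3006 of them (68.3%) and within 2-fold of WT#20D-17 in 847 (19.3%). Over all tested genes the Nox4-/- values lay between the wild type values in 4164 (27.1%), the wild type values between the Nox4-/- values in 1107 (7.2%), and in 4731 (30.8%) the values interleaved or tied. Of the 425 genes separated at least 2-fold, the wild type lines were less than 2-fold apart in 247. When they were not, WT#20D-17 was mostly the more extreme line: it was the higher in 87 and the lower in 22 of the genes where Nox4-/- cells lay below, and the higher in 7 and the lower in 62 where they lay above.

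Genes with the widest difference between wild type lines, with Nox4-/- lines between them, were of 2 kinds. Where WT#20D-17 was higher, WT#1-4 and both Nox4-/- lines were all near the floor or low. Igfbp2, an IGF-binding protein of embryonic stem cells, was 0.377, 403, 1.27 and 0.737 CPM, a wild type difference of 8.20 on log2 of CPM plus 1. Gpc3, an X-linked glypican of the cell surface, was 0.339, 127, 0.712 and 1.29 CPM, and Zfp979, a zinc finger gene, was 0, 119, 0.396 and 0.811 CPM. Eno1b, at 8.48, 1217, 9.38 and 9.58 CPM, and Hmga1b, at 9.38, 1006, 10.1 and 16.7 CPM, are near-copies of Eno1 and Hmga1, so reads can be split between the copies.

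Where WT#20D-17 was lower, it was near 0 and WT#1-4 was high, and the Nox4-/- lines took different places. Lama4, a laminin chain of vessel basement membrane, was 481, 0.627, 299.7 and 393 CPM, and Ddr2, a collagen receptor of mesenchymal cells, was 285, 0.209, 206 and 161 CPM, so in both genes the Nox4-/- lines were close to WT#1-4. Col15a1, a basement membrane collagen, was 536, 0.209, 2.49 and 3.91 CPM, and Nyap2, a neuronal adaptor of PI3K, was 267, 0, 2.22 and 1.62 CPM, so here WT#1-4 stood alone. Krt20, an intestinal keratin, was 249, 0.0836, 16.3 and 6.01 CPM. For Lama4 and Ddr2 the log2 fold change between genotypes was 0.52 ± 2.23 and 0.36 ± 2.30, and its error is set by the gap between the wild type lines.

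Lines also differed along whole chromosomes, measured as the median deviation of each line from the mean of the 4, on log2 of CPM plus 1, counting only genes whose mean reached 50 counts. On chromosome 5 (821 genes), the median of #5-23 was 0.42 and those of WT#1-4, WT#20D-17 and #5-8 were -0.13, -0.12 and -0.13. On chromosome 14 (455 genes), WT#20D-17 was 0.33 above. Smaller shifts were seen on chromosome 1 (WT#20D-17 0.15 above) and the X chromosome (#5-23 at -0.14). Chromosome 5 held 13 genes above and 8 below at least 2-fold (2.01%) and chromosome 14 held 8 and 7 (2.7%), near the 2.76% of all genes.

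Libraries of the later days, which did not choose the genes, held many of the day 0 differences, although they came from the same clones. Of the 188 genes above, 81, 72, 71 and 76 were again at least 2-fold above on days 3, 5, 7 and 14, days on which 0.786%, 1.17%, 1.1% and 2.97% of all tested genes were. Of the 237 below, 124, 98, 114 and 92 were again below, against 1.76%, 1.55%, 2.87% and 3.47%. With any gap, 160, 149, 144 and 130 of the 188 lay above on those days, against 21%, 20.1%, 23.6% and 24% of all genes, and 218, 189, 185 and 157 of the 237 lay below, against 20.4%, 20.1%, 21.5% and 22.5%. At most 4 of either set lay on the other side on any day. On all 5 days 38 genes (20.2%) stayed above and 66 (27.8%) below, among them Hoxc10, Rtkn and Avil above and Pdpn, Repin1, Slc38a4, Cbx7 and Mmp2 below.

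Pdpn, with CPM scaled over all 20 libraries, was 32.7, 40.2, 43.4, 51 and 51 in WT#1-4 and 38.2, 38.1, 71.4, 76.1 and 181 in WT#20D-17 on days 0, 3, 5, 7 and 14, and stayed below 0.5 CPM in both Nox4-/- lines throughout. Hoxc10 was 19.2, 19.2, 20.3, 19.2 and 21 CPM in #5-8 and 35.3, 24.4, 23.6, 19.6 and 19.8 CPM in #5-23 on the same days, and reached 3.3 CPM in WT#20D-17 on day 14. Serpinb9b lost its gap in 1 wild type line only. It went from 1.01 to 48.7 CPM in WT#20D-17 between days 0 and 14, when #5-8 held 48.8 CPM and #5-23 38.95 CPM. In WT#1-4 it was 1.43, 6.73, 8.04, 8.31 and 4.77 CPM over the 5 days, below both Nox4-/- lines on each. Pdpn and Hoxc10 thus kept the genotypes apart on every day, and Serpinb9b did not.

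The genotype difference on day 0 was also tested against that on the later days within lines, in a fit of all 20 libraries with terms for line and day. Its p-values rest on the spread among libraries of the same clones over days, not on the spread between clones. Of 19240 genes, 1 was called at an FDR of 0.05 (0.0052%), and 1523 (7.92%) had an unadjusted p under 0.05. That gene was Slc16a3, for which the log2 fold change of Nox4-/- over wild type on day 0 minus that on later days was -2.18 ± 0.25 (SE, edgeR quasi-likelihood test, adjusted p = 0.00431). Its CPM over the 5 days was 154, 263, 268, 301 and 337 in WT#1-4 and 150.1, 288, 343, 410.3 and 384 in WT#20D-17. It was 29.2, 202, 315, 252 and 365 in #5-8 and 27.2, 186, 349, 264 and 262 in #5-23. The genotypes were far apart on day 0, lay closer but did not overlap on days 3 and 7, and overlapped on days 5 and 14. The estimate was between -2.02 and -2.33 when any 1 line was left out, but the adjusted p was 0.379 without #5-8 and 0.531 without #5-23.

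**Figure D5:**
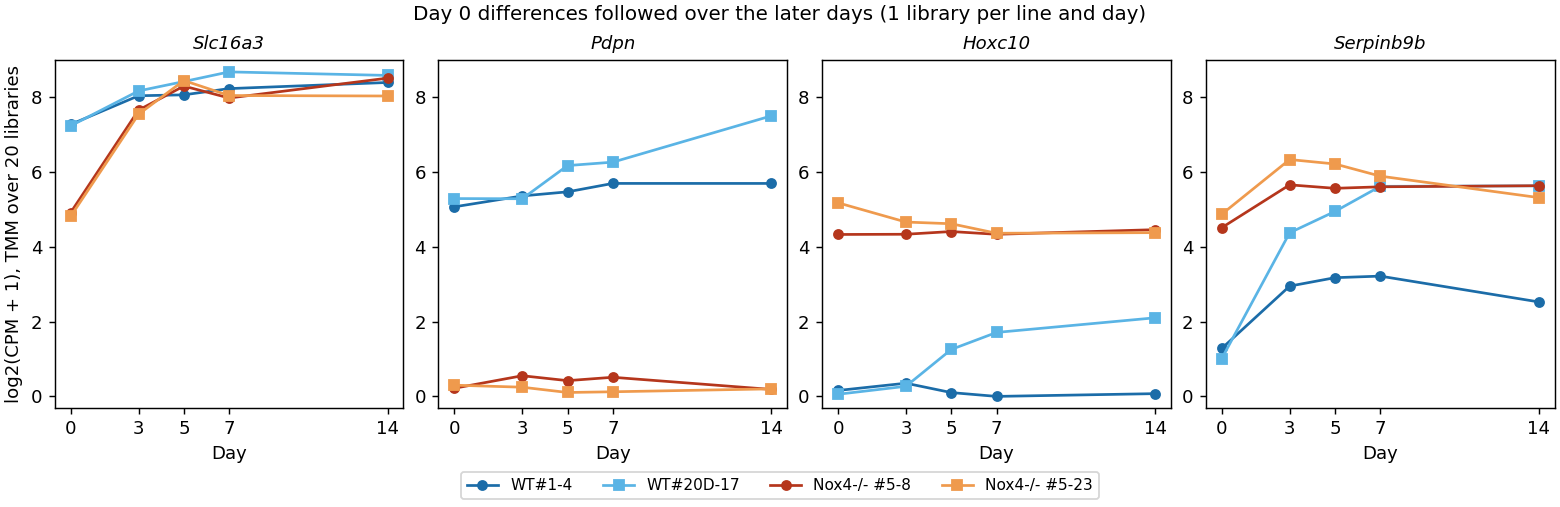
CPM on a log2 scale (plus 1, scaled over 20 libraries) of 4 genes on days 0, 3, 5, 7 and 14, with 1 point per line and day joined by lines. Slc16a3 lies furthest apart on day 0 and overlaps between genotypes on days 5 and 14, and Pdpn and Hoxc10 separate them on every day. For Serpinb9b, WT#20D-17 reaches the Nox4-/- level by day 7, while WT#1-4 stays below it on every day.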

How the data were processed

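RNA-seq values were deposited by the authors per gene, in expected counts, for 20 libraries. Per the labels and the submitters' processing notes, base calls were converted with bcl2fastq, and STAR 2.6.0c and RSEM 1.3.1 were used with an mm10/GRCm38 build. RSEM shares reads among similar genes by a model, so counts need not be whole, and values of near copies and overlapping genes are uncertain. The strand setting of the counting is not given in the sources used here.

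Here counts were rounded to whole numbers, and 15382 of 55573 genes passed edgeR's filterByExpr over the 4 day 0 libraries. The filter drops genes expressed in 1 line alone. A gene near 0 in 1 genotype passes only through the other, so its side is fixed in advance. A list count that includes such genes is no test of direction. Genotypes were compared with edgeR 4.0.16 (TMM factors, quasi-likelihood test, R 4.3.3, limma 3.58.1) and Benjamini-Hochberg adjustment at an FDR of 0.05. edgeR's exact test, which the study used, and DESeq2 1.42.0 were alternatives. Gaps between genotypes and differences between lines were taken on log2(CPM + 1), with 2-fold as a gap of 1. The interaction with day was fitted over 20 libraries. Scripts were tested on simulated data. Groups came from the sample labels. Replicates are clonal lines, so p-values of the 4-library day 0 tests measure the spread between these lines only. The interaction fit has a term for line. Its p-values measure the spread among libraries of the same 4 lines over days, taken as independent.

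The text names Nox4 and its partners, Igf2, Tgfb1, Pdgfa and Pdgfb, the 10 protein coding genes with the widest gap in each direction (mean of at least 5 CPM in 1 genotype), the 5 with the widest wild type difference in each direction and Nox4-/- values between, list members separated at least 2-fold, and 4 chromosomes. Other genes, among them list members under that limit, members of the runs, Ctsc and Slc16a3, were chosen after their values were seen. The comparison, the lists and the named genes were chosen with earlier results of these data known. Promoter windows from RefSeq (GRCm38.p6) matched 10846 of the tested genes by symbol, and no window was found for Repin1 or the HoxC genes. Alternatives were other scaling factors (RLE, upper quartile), filters (none, a mean of 10 counts), a pseudocount of 0.5 CPM, an FDR of 0.01, a fit of 20 libraries, and leaving out each line.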

Additional observations from a re-analysis of the deposited data

Results flagged for a closer look

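Slc16a3 (the lactate exporter MCT4) was picked out because its genotype difference on day 0 differed from that on days 3 to 14, by a test of the difference itself. The day 0 log2 fold change minus the later one was -2.18 ± 0.25 (SE, edgeR quasi-likelihood test, adjusted p = 0.00431, 1 of 19240 genes). On day 0 both Nox4-/- lines were below both wild type lines. The adjusted p was 0.00732 without WT#1-4, 0.0493 without WT#20D-17, 0.379 without #5-8 and 0.531 without #5-23.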

How the results depend on the processing

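The day 0 test gave 0 calls with RLE or upper quartile factors, without a filter, with a mean of 10 counts and at an FDR of 0.01. It gave 199 calls with the exact test, 496 with DESeq2 and 6 with the 20-library fit, and 0 to 4953 when 1 line was left out (4953 without WT#1-4, 563 without WT#20D-17, 0 without #5-8 or #5-23). Such a fit leaves 1 library in a genotype, which is assumed to vary like the other genotype. Separated genes numbered 8123 without a filter and 9628 to 14710 when 1 line was left out (14710 without WT#1-4, 11560 without WT#20D-17, 10260 without #5-8 and 9628 without #5-23). At least 2-fold, they numbered 721 to 4280 (4280 without WT#1-4, 1100 without WT#20D-17, 825 without #5-8 and 721 without #5-23), where a side of 1 library makes separation easier. The share above was 44.2% with all lines, 32.1% without WT#20D-17 and 53.4% without #5-23. The difference of day 0 from later days gave 0 to 559 calls (559 without WT#1-4, 1 without WT#20D-17, 0 without #5-8 or #5-23). The count of genes at least 2-fold apart between wild type lines stayed within 1.5 times under the settings tried. Cyba had a log2 fold change of 1.86 without WT#20D-17, the opposite sign. The cause of these changes was not tested. Of 25 lists, the median changed sign in 3 without WT#1-4, 7 without WT#20D-17, 2 without #5-8 and 3 without #5-23. These were naive pluripotency (0.41), trophoblast (1.06), redox defence (0.01), DNA methylation enzymes (-0.01), HoxA (-0.39), sterol synthesis (0.10) and X-inactivation and Y-linked (0.07) without WT#20D-17. Without WT#1-4 they were the 2-cell-like (3.15), fibroblast (0.79) and redox (0.10) lists, without #5-8 the 2-cell-like (0.39) and redox (0.02) lists, and without #5-23 the trophoblast (0.14), HoxB (-0.27) and HoxD (-1.69) lists. No paired analysis was possible because line names and replicate numbers do not pair a wild type line with a Nox4-/- line. With 1 library per line, counting error is small against the spread between clones except near the floor of 3 counts.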
